A study of Verbena bonariensis with 6 samples.

Results

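Histidine kinases and ethylene receptors were followed in roots of Verbena bonariensis, an ornamental garden plant (strain Finesse), after growth in soil with cadmium, a toxic metal. The members are all gene clusters whose best Swiss-Prot hit is described as a histidine kinase or an ethylene receptor, which gave 76 of the 8147 clusters in a table of transcription factors and other regulators. They carry 8 protein names: the ethylene receptors ETR1 (3 clusters) and ETR2 (1 cluster), the cytokinin receptors AHK2 (13 clusters), AHK3 (28 clusters) and AHK4 (14 clusters), and the kinases AHK1 (6 clusters), AHK5 (6 clusters) and CKI1 (5 clusters). The cadmium group had 100 mg/kg of the metal added and the control group had no cadmium solution added. Each group holds 3 libraries, described in the labels as biological replicates, of 2-month-old plants of this strain harvested on day 20 of the treatment. A cluster is an assembled group of transcripts, so several clusters can come from 1 gene and may share reads that the counting divided among them. The clusters have no genome positions in the table used here, and the names are those of proteins of Arabidopsis thaliana or, for ETR1, tomato.

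Plant histidine kinases sense a signal, phosphorylate a histidine of their own and pass the phosphate on to other proteins. In Arabidopsis, AHK2, AHK3 and AHK4 bind the hormone cytokinin and send phosphate through transfer proteins to type B response regulators, which switch on target genes. Among those targets are the type A response regulators, which dampen the signal. AHK4 is known from the root vascular tissue, where a mutant form of it blocks cell divisions of the vascular cylinder. Ethylene receptors are related proteins that work the other way round: with no ethylene bound they keep the kinase CTR1 active and the response off, and binding of the gas releases activators such as EIN3.

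Counts of these regulators summed to between 1092183 and 1228042 per cadmium library and between 1207479 and 1340255 per control library. Totals of the whole libraries, worked out from each cluster's count and FPKM, were 20390656 to 23343050 fragments for cadmium and 18619728 to 20558908 for control. Regulators took 5.37% ± 0.152 of the fragments in cadmium and 6.48% ± 0.0358 in control libraries (SD, n = 3 each). CPM below are a cluster's counts relative to the regulator counts after TMM scaling and serve to compare groups. FPKM, which are relative to cluster length and to the whole library, serve to compare levels between genes. Scaling to whole-library totals lowered the median log2 fold change of all regulators by 0.35, so a cluster near 0 on the CPM scale lies below 0 on the other. Of the root regulators looked for by name, 5 of 7 had clusters in the table, and MYB36 and RSL had none. SHORT-ROOT stood at 17.3 to 23.4 FPKM in cadmium and 29.5 to 34.2 FPKM in control libraries, and LRP1 at 41.2 to 58.6 FPKM in cadmium and 53.8 to 56.4 FPKM in control libraries. SCARECROW stood at 6.68 to 8.8 FPKM in cadmium and 4.09 to 6.47 FPKM in control libraries. The regulators of the root tip differed more: PLETHORA and its AIL relatives summed to 14.1 to 33.1 FPKM in cadmium and 7.39 to 10.6 FPKM in control libraries, and WOX5 to 1.15 to 1.87 FPKM in cadmium and 0.09 to 0.49 FPKM in control libraries. Of 10 names from leaf, flower or stomata, 7 had no cluster, AGAMOUS and MUTE stayed at or under 1.96 FPKM, and GLK1 with GLK2 summed to 50.9 to 54.7 FPKM in cadmium and 86.9 to 96.1 FPKM in control libraries. The part of these differences in the results below was not tested.

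The comparison asked which of these sensors differ in transcript level under cadmium. The cytokinin receptor AHK4 fell to 0.198 of its control level in summed counts, AHK2 rose, and AHK3 clusters went both ways. Of the ethylene receptors that the name rule finds, ETR1, which had more reads than ETR2, was 1.31-fold higher relative to the other regulators and differed by a log2 fold change of 0.03 with whole-library totals. Of the 76 clusters, 49 passed the filter on low counts, 25 had reads but too few, or in too few libraries, to pass, and 2 were at 0 in every library. Of the 49, 8 rose and 13 fell at an adjusted p below 0.05 (Benjamini-Hochberg, from edgeR's quasi-likelihood fit). Over all 4844 regulators tested, 30.5% were called, 15.8% higher and 14.6% lower. The members' 8 higher calls are close to the background share and their 13 lower calls are above it. Clusters of 1 name may share reads, so these calls are not independent. AHK3 gave 6 of the lower calls and AHK4 gave 5, so the excess is not a trait of all names. The groups did not overlap in 32 of the 49, against 53.5% of all regulators. The median log2 fold change of the 49 was −0.69, or −1.04 with whole-library totals, beside −0.08 and −0.42 over all regulators tested; the 3 called clusters at 0 in cadmium lie below that median at their bounds too. With whole-library totals 4 rose and 18 fell, where the background was 10.9% higher and 22.9% lower. In bulk roots, fewer cells of a type and less RNA per cell cannot be told apart.

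Summed over the clusters of each name, ETR1 had the highest level, 140 ± 8.65 FPKM in cadmium and 136 ± 7.31 FPKM in control libraries (SD, n = 3 each). In cadmium roots AHK3 followed at 57.5 ± 3.64 FPKM and AHK2 at 51.8 ± 2.56 FPKM, then AHK4 at 11.4 ± 1.87 FPKM and AHK1 at 9.72 ± 0.827 FPKM. In control roots AHK3 stood at 91.8 ± 8.71 FPKM, AHK4 at 76.3 ± 5.32 FPKM, AHK2 at 40.9 ± 0.0458 FPKM and AHK1 at 11.9 ± 1.04 FPKM. AHK4 therefore lay beside AHK3 in control roots and beside AHK1 in cadmium roots, where the AHK4 and AHK1 libraries overlapped. The remaining names were low: ETR2 at 3.77 ± 0.15 FPKM in cadmium and 4.6 ± 0.67 FPKM in control, CKI1 at 2.50 ± 0.30 FPKM in cadmium and 1.92 ± 0.341 FPKM in control, and AHK5 at 2.32 ± 0.469 FPKM in cadmium and 6.54 ± 1.14 FPKM in control. In cadmium roots CKI1 and AHK5 libraries overlapped, so their order there is not set. Tested as sums over all clusters of a name, 6 of the 8 proteins passed, 4 higher and 2 lower. The total of 6 calls is near the background share, since 61.7% of all 1210 protein sums tested were called, 32.9% higher and 28.8% lower. With whole-library totals AHK2 was still called higher and AHK4 and AHK5 lower, while AHK3, CKI1 and ETR1 were not called.

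**Figure D1:**
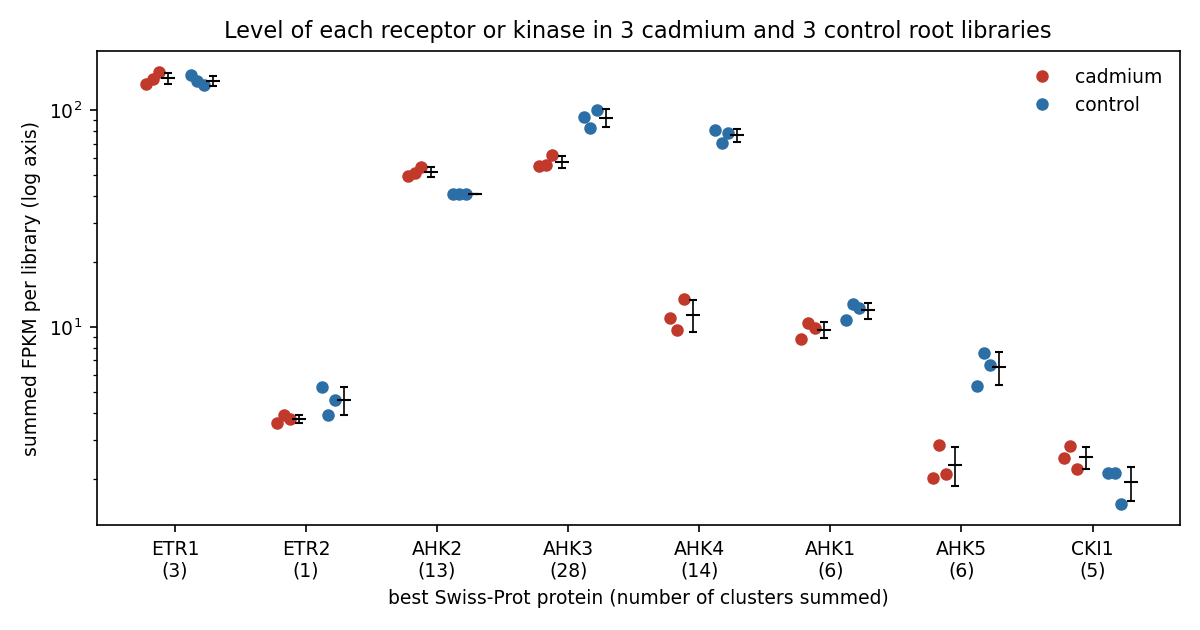
Summed FPKM per library (log axis) of the 8 protein names, with 3 cadmium libraries left of 3 control libraries for each, and the mean with its SD in black. AHK4 lies between 9.70 and 13.4 FPKM in cadmium and between 70.3 and 80.6 FPKM in control libraries, while ETR1 overlaps between the groups.

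AHK4 had a lower mean in cadmium in every cluster with reads. Its summed counts were 765, 680.4 and 849.6 CPM in the cadmium libraries, against 4174, 3577 and 3869 CPM in the control libraries. The groups lie far apart, and the sum fell by 2.34 ± 0.0976 on the log2 scale (SE, edgeR on counts summed over the best Swiss-Prot protein, Benjamini-Hochberg adjusted p = 3.08e-07), with a value of −2.70 under whole-library totals. Of the 14 clusters 12 had reads, 3 of them in control replicate 2 alone, and 2 were at 0 throughout. Of the 8 tested clusters, 5 fell and 0 rose, and 7 fell with whole-library totals.

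The AHK4 cluster with the most reads, Cluster-9033.114607, had 302, 378 and 454 CPM in the cadmium libraries, against 2240.1, 1923 and 2392 CPM in the control libraries. It is 3761 bases long, held 55.1% of the AHK4 counts and fell by 2.53 ± 0.173 on the log2 scale (edgeR, adjusted p = 0.000251); the authors' deposited table gives a log2 ratio of −2.61. Cluster-9033.60887 had 57.2, 62.7 and 87.1 CPM in the cadmium libraries, against 508, 512 and 424 CPM in the control libraries. Its log2 fold change of −2.80 ± 0.201 (adjusted p = 0.00029) was close to that of the main cluster, and both calls stood with any single library left out. Cluster-9033.60893 was at 0 in cadmium replicates 1 and 2 and had 16.95 CPM in replicate 3, against 219, 231 and 304 CPM in the control libraries. Cluster-9033.60901 had 1.90, 12.9 and 10.3 CPM in the cadmium libraries, against 85.6, 52.3 and 108 CPM in the control libraries. Cluster-9033.60898 had 139, 56.2 and 74.9 CPM in the cadmium libraries, against 304, 231 and 295 CPM in the control libraries. In all 3 clusters every cadmium library lay below every control library. Their log2 fold changes were, in the order given, −5.43 ± 1.25, −3.30 ± 0.733 and −1.62 ± 0.349 (adjusted p = 0.0205, 0.0182 and 0.0162). The value of Cluster-9033.60893, with reads in cadmium replicate 3 alone of its group, was −11.27 without that library and no lower than −5.49 without any other. Their calls were less firm: that of Cluster-9033.60893 ended without any single control library (adjusted p 0.0613 to 0.0695), and those of Cluster-9033.60901 and Cluster-9033.60898 ended without cadmium replicate 3, control replicate 1 or control replicate 3 (adjusted p 0.0555 to 0.0632). The 3 tested AHK4 clusters that did not pass had log2 fold changes between −2.62 and −0.96, and the libraries of 2 of them overlapped between the groups.

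AHK2, which acts beside AHK3 and AHK4 in the same relay, rose. Its summed counts were 3678, 3795 and 4054 CPM in the cadmium libraries, against 2159, 2039 and 1949.7 CPM in the control libraries. Every cadmium library lay above every control library, with a log2 fold change of 0.91 ± 0.0664 (SE, edgeR, adjusted p = 7.96e-06), or 0.55 with whole-library totals (adjusted p = 0.000156). Of its 9 tested clusters, 4 rose and 0 fell on the CPM scale, and 3 rose and 2 fell with whole-library totals.

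Cluster-9033.113988, 5713 bases long and the AHK2 cluster with the most reads, had 1858, 1928 and 2049 CPM in the cadmium libraries, against 972, 708 and 701 CPM in the control libraries (log2 fold change 1.29 ± 0.143, adjusted p = 0.00137). Cluster-9033.113977 had 491, 676 and 809 CPM in the cadmium libraries, against 288, 344 and 269 CPM in the control libraries (log2 fold change 1.13 ± 0.204, adjusted p = 0.00858). Cluster-9033.113981 had 249, 331 and 252 CPM in the cadmium libraries, against 71.7, 50.6 and 93.8 CPM in the control libraries (log2 fold change 1.94 ± 0.266, adjusted p = 0.00303). None of these 3 calls was lost when any single library was left out. The smaller Cluster-9033.113983 had 77.6, 64.3 and 70.3 CPM in the cadmium libraries, against 23.8, 17.01 and 39.7 CPM in the control libraries (log2 fold change 1.40 ± 0.389, adjusted p = 0.0394). That call stood without control replicate 3 and ended when any other single library was left out (adjusted p 0.077 to 0.116). The 5 AHK2 clusters that were tested and did not pass ranged from −1.14 to 3.09 in log2 fold change. Among them Cluster-9033.113985, the AHK2 cluster with the highest control FPKM, had 635, 571 and 629 CPM in cadmium and 615, 647 and 599 CPM in control libraries. Its log2 fold change was −0.02, or −0.37 with whole-library totals, where it was called lower (edgeR, adjusted p = 0.0114). Cluster-9033.113978 was also called lower on that scale (−1.49, adjusted p = 0.022), so AHK2 clusters did not all rise.

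AHK3, the third cytokinin receptor and the name with the most clusters, did not move as a unit. Of 16 tested clusters 2 rose and 6 fell, or 1 and 7 with whole-library totals. The outcome of the sum depended on the scale. Summed counts were 2895, 2785 and 3067 CPM in the cadmium libraries, against 2550.1, 2293 and 2442 CPM in the control libraries, a log2 fold change of 0.26 ± 0.0664 (edgeR, adjusted p = 0.0087). That value was −0.10 with whole-library totals (adjusted p = 0.268), 0.19 without control replicate 2 (adjusted p = 0.058) and −0.66 in limma on log2(summed FPKM + 1) (adjusted p = 0.000164), where short clusters weigh more.

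Both AHK3 clusters that rose lie in a short run of the deposited numbers, 100087 to 100094. Cluster-9033.100088, 3814 bases long, had 1556, 1587 and 1676 CPM in the cadmium libraries, against 709, 674 and 474 CPM in the control libraries (log2 fold change 1.38 ± 0.159, adjusted p = 0.00158). Cluster-9033.100093 had 165, 146 and 134 CPM in the cadmium libraries, against 41.3, 91.2 and 49.4 CPM in the control libraries (log2 fold change 1.29 ± 0.332, adjusted p = 0.0303), a call that stood without control replicate 2 and ended when any other single library was left out (adjusted p 0.0668 to 0.0939). Cluster-9033.100089, of the same number range and the highest AHK3 cluster that did not pass, had 616, 599.6 and 666 CPM in the cadmium libraries, against 632, 713 and 655 CPM in the control libraries (log2 fold change −0.09 ± 0.0843, adjusted p = 0.496). It was called lower with whole-library totals (log2 fold change −0.43, adjusted p = 0.00904) and in limma on log2(FPKM + 1) (−0.41, adjusted p = 0.00848). The 6 clusters of that range summed to 48.6, 48.0 and 53.6 FPKM in the cadmium libraries and to 40.5, 42.6 and 38.6 FPKM in the control libraries. In CPM they summed to 2670, 2528 and 2845 in cadmium and to 1436, 1507 and 1303 in control libraries.

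The AHK3 clusters that fell on the CPM scale lie outside that range, 4 of them among the 15 clusters numbered 104562 to 104579. Together these 15 summed to 5.98, 5.58 and 6.11 FPKM in the cadmium libraries, against 40.5, 31.3 and 45.9 FPKM in the control libraries. In CPM they summed to 174, 155 and 158 in cadmium and to 766, 585 and 752 in control libraries. These sums describe a group formed after the values were seen. Cluster-9033.104577 had 9.30, 7.76 and 12.8 CPM in the cadmium libraries, against 121, 115 and 181 CPM in the control libraries (log2 fold change −3.81 ± 0.347, adjusted p = 0.000697). Cluster-9033.104578, the shortest member at 769 bases, had 34.2, 31.1 and 35.9 CPM in the cadmium libraries, against 178, 133.8 and 203 CPM in the control libraries (log2 fold change −2.33 ± 0.222, adjusted p = 0.000832). For both, every control library lies far above every cadmium library. Cluster-9033.104574 had 63.6, 40.4 and 15.5 CPM in the cadmium libraries, against 162, 208 and 182 CPM in the control libraries (log2 fold change −2.20 ± 0.492, adjusted p = 0.0184), and its call stood without cadmium replicate 1 or 3 and ended when any other single library was left out (adjusted p 0.0501 to 0.0676). Cluster-9033.104571 was at 0 in all 3 cadmium libraries, against 31.3, 20.1 and 39.3 CPM in the control libraries, at least 34.7-fold lower with the cadmium group set to a floor of 3 counts in all (adjusted p = 0.00624). An expected count of 0 can also arise where the counting assigns shared reads to another cluster of the same name, which was not tested.

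A further pair of AHK3 clusters fell. Cluster-9033.114696 had 3.12, 13.4 and 20.7 CPM in the cadmium libraries, against 96.9, 115 and 146 CPM in the control libraries (log2 fold change −3.27 ± 0.628, adjusted p = 0.0107). Cluster-9033.38622 had 5.64 CPM in cadmium replicate 1 and 0 in the other cadmium libraries, against 88.1, 75.6 and 206 CPM in the control libraries (log2 fold change −5.88 ± 1.25, adjusted p = 0.0155, and 0.0602 without control replicate 3). Its value was −10.24 without cadmium replicate 1.

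**Figure D2:**
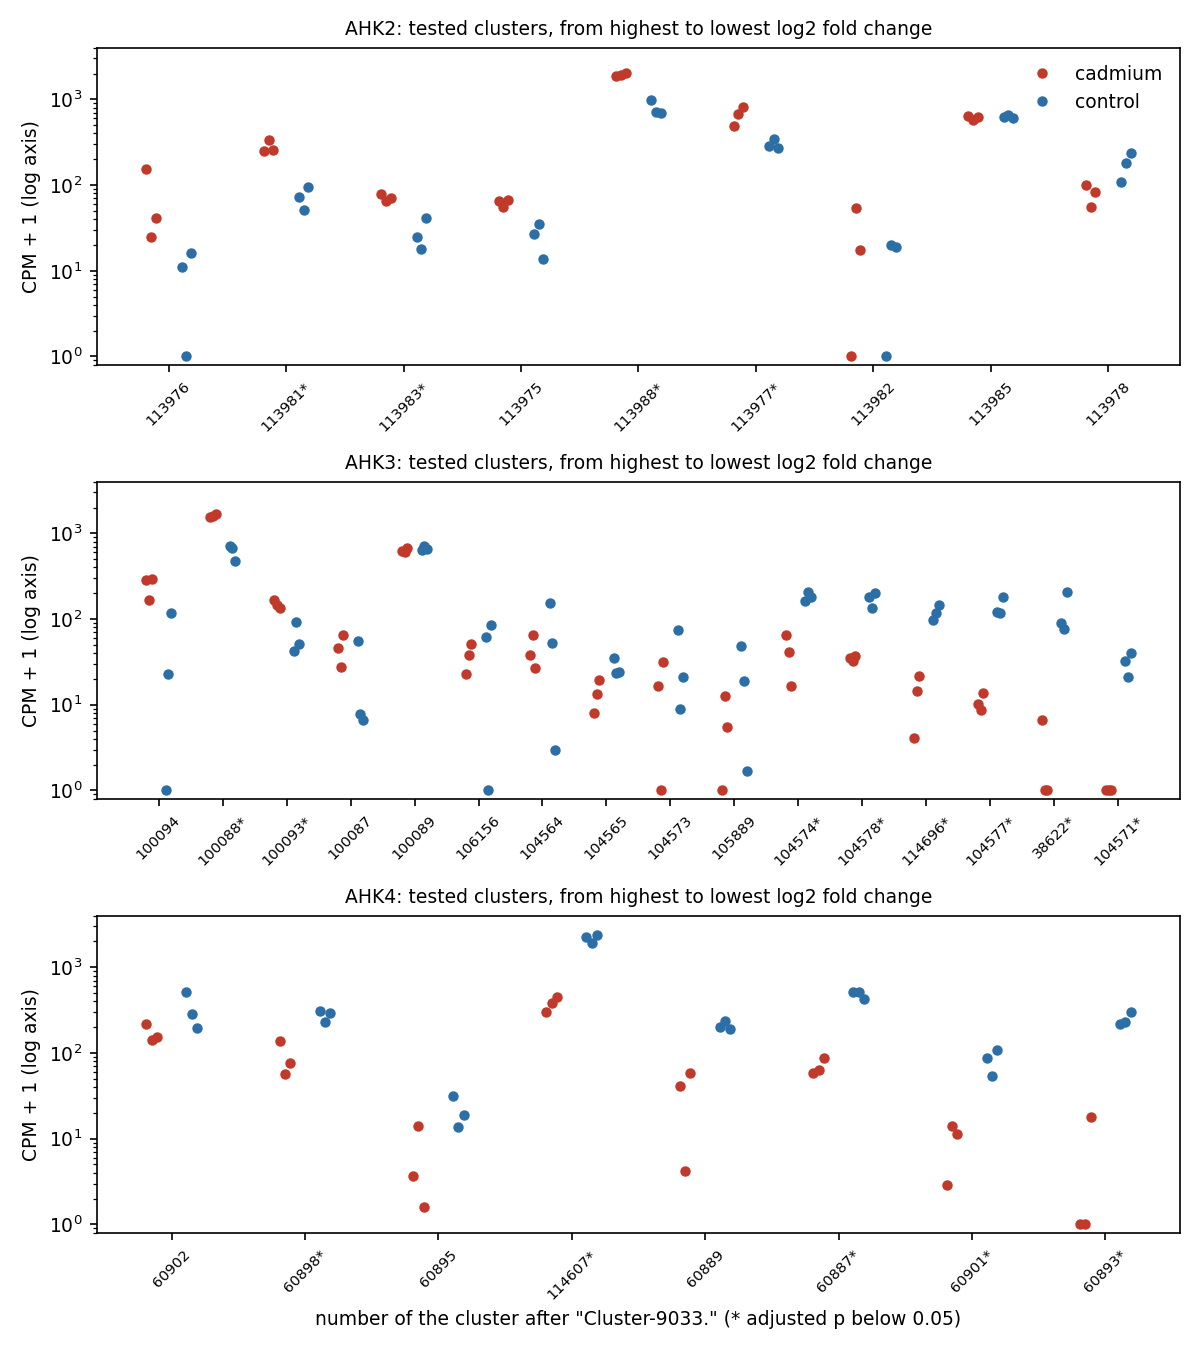
CPM + 1 per library (log axis) of the tested AHK2, AHK3 and AHK4 clusters, ordered by log2 fold change, with cadmium libraries left of control libraries and an asterisk for an adjusted p below 0.05. AHK4 means are lower in cadmium in all 8 tested clusters, though 2 overlap, 7 of 9 AHK2 clusters have a positive log2 fold change, and AHK3 holds 2 clusters that rose beside 6 that fell.

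The make-up of the cytokinin receptor transcripts differed between the groups. The 3 receptors together summed to 121 ± 7.85 FPKM in cadmium and 209 ± 13.2 FPKM in control libraries (SD, n = 3 each). The size of that difference depends on the scale, since FPKM are relative to the whole library and give short clusters more weight. In mean summed CPM, AHK2 stood at 3842 in cadmium and 2049 in control, and AHK3 at 2916 and 2428. AHK4 stood at 765 CPM in cadmium and 3873 CPM in control. AHK4 made up 9.5%, 8.33% and 10.3% of that sum in the cadmium libraries, against 37.7%, 36.3% and 35.6% in the control libraries. AHK2 made up 42.9% ± 0.892 in cadmium and 19.6% ± 1.26 in control libraries. AHK3 made up 47.7% ± 0.108 in cadmium and 43.9% ± 1.65 in control libraries. Taken over counts, which give long clusters more weight, the AHK4 share was 10.2% ± 0.687 in cadmium and 46.3% ± 0.976 in control libraries. These shares rest on the values used above and were not tested again.

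**Figure D3:**
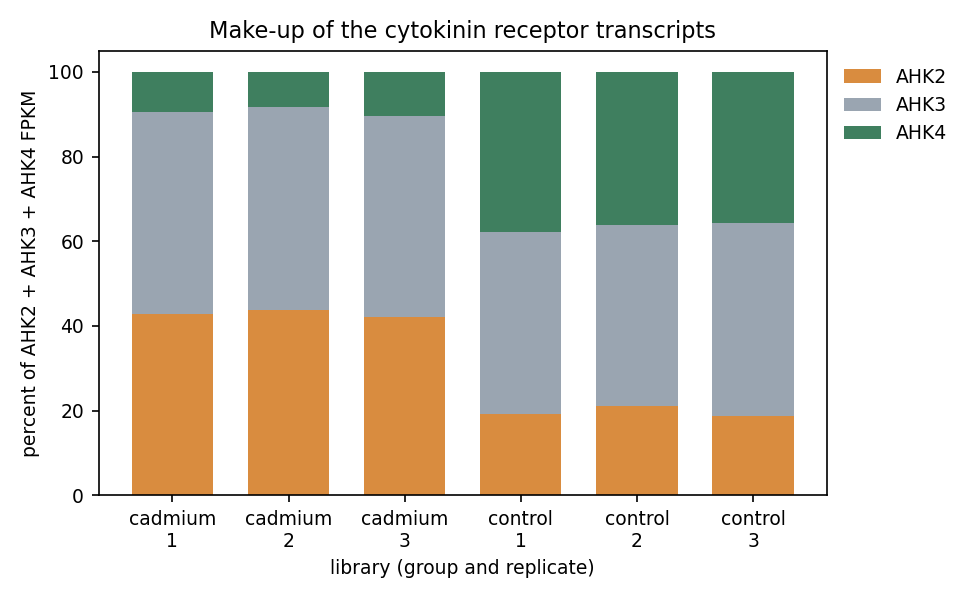
Percent of the summed FPKM of AHK2, AHK3 and AHK4 taken by each receptor, as stacked bars for 3 cadmium and 3 control libraries. AHK4 takes 8.33% to 10.3% in cadmium and 35.6% to 37.7% in control libraries, and AHK2 takes 42.1% to 43.9% in cadmium and 18.7% to 21.04% in control libraries.

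The ethylene receptors ETR1 and ETR2 together held 144 ± 8.71 FPKM in cadmium and 141 ± 7.72 FPKM in control libraries (SD, n = 3 each), with overlapping groups. ETR1, a receptor of the group that keeps a working histidine kinase, rests on Cluster-9033.84021, which held nearly all of its counts. That cluster had 4566, 4619 and 5018 CPM in the cadmium libraries, against 3763, 3669 and 3387 CPM in the control libraries. It rose by 0.39 ± 0.0661 on the log2 scale (edgeR, adjusted p = 0.00653) relative to the other regulators, while whole-library totals gave 0.04 and no call (adjusted p = 0.661). Cluster-9033.84024 had 74.4, 107 and 41.6 CPM in the cadmium libraries, against 67.7, 62.3 and 80.9 CPM in the control libraries, and did not pass (log2 fold change 0.08 ± 0.374). The third ETR1 cluster, Cluster-9033.83513, was lower in every cadmium library and did not pass either (adjusted p = 0.0671). ETR2, a receptor of the group with a degenerate kinase, had 225, 235 and 226 CPM in the cadmium libraries, against 249, 192 and 218 CPM in the control libraries in its only cluster, Cluster-9033.17819. The libraries overlapped, and the log2 fold change was 0.06 ± 0.132 (adjusted p = 0.791), or −0.29 with whole-library totals (adjusted p = 0.166).

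A further pair of clusters shares its best NR protein, an ethylene receptor 2-like protein of sesame, with the ETR2 cluster but has the Swiss-Prot name Protein EIN4, another receptor, and so falls outside the rule. They were looked up after the values were seen. Their sum was 89.7, 91.6 and 97.1 FPKM in the cadmium libraries, against 59.6, 51.9 and 56.8 FPKM in the control libraries. On the CPM scale the EIN4 sum rose by 1.08 ± 0.064 in log2 (edgeR, adjusted p = 2.32e-06), or by 0.72 with whole-library totals (adjusted p = 2.54e-05). Among all protein sums tested, 32.9% were called higher on the CPM scale. By itself, Cluster-9033.51779 rose by 1.32 (adjusted p = 0.00488), or 0.97 with whole-library totals (adjusted p = 0.0123). Cluster-9033.51777 rose by 0.77 (adjusted p = 0.0429) and was not called with whole-library totals (0.42, adjusted p = 0.217). Of the genes that act below these receptors, CTR1, the kinase that they hold active, had 475, 519.8 and 425 CPM in the cadmium libraries, against 681, 670.2 and 584 CPM in the control libraries in Cluster-9033.86179 (log2 fold change −0.45 ± 0.111, adjusted p = 0.0265), and its other cluster did not pass. Of 16 tested clusters of EIN3 and its relatives the EIL proteins, the activators at the end of the pathway, 7 rose and 2 fell, or 4 and 4 with whole-library totals. That is 56.2% called, against 30.5% of all regulators, with a median log2 fold change of 0.37, or 0.02 with whole-library totals. The EIN3 cluster with the smallest adjusted p had 402, 375 and 344 CPM in the cadmium libraries, against 67.3, 85.3 and 101 CPM in the control libraries (Cluster-9033.80681, log2 fold change 2.15 ± 0.18, adjusted p = 0.000514). EIL3 had 719, 633 and 708 CPM in cadmium and 429.6, 391.6 and 361 CPM in control libraries in Cluster-9033.100480, which rose (adjusted p = 0.00226). EIL1 had 435, 443 and 515 CPM in cadmium and 703, 681 and 704 CPM in control libraries in Cluster-9033.54875, which fell (adjusted p = 0.00534). An EIL3 cluster, Cluster-9033.100493, fell too (log2 fold change −1.12 ± 0.264, adjusted p = 0.022).

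Of the other kinases, AHK5, known in Arabidopsis from stress responses of roots and guard cells, fell. Its sum was 122, 153 and 122 CPM in the cadmium libraries, against 187, 260.1 and 223 CPM in the control libraries (log2 fold change −0.76 ± 0.162, edgeR, adjusted p = 0.00387, and −1.11 with whole-library totals). Cluster-9033.27395, 1765 bases long, was at 0 in all 3 cadmium libraries, against 60.5, 69.9 and 70.6 CPM in the control libraries. Set to 3 counts in all, the cadmium group is at least 76.9-fold lower (adjusted p = 0.00146), and the authors' deposited table also calls it lower. The longer Cluster-9033.27654 carried most of the AHK5 reads in cadmium, with 77.0, 91.1 and 100.0 CPM in the cadmium libraries, against 76.2, 137 and 117 CPM in the control libraries, which overlap (log2 fold change −0.30 ± 0.264, adjusted p = 0.442). Cluster-9033.27395 was the only 1 of 4 tested AHK5 clusters to pass. The 4 clusters numbered 27651 to 27654 together had 121, 143 and 122 CPM in cadmium and 124, 192 and 157 CPM in control libraries, which overlap.

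AHK1, proposed as a sensor of water stress, did not pass as a sum, with 296, 317 and 329 CPM in the cadmium libraries, against 268, 309 and 282 CPM in the control libraries (log2 fold change 0.13 ± 0.1, adjusted p = 0.287, and −0.23 with whole-library totals). Its main cluster, Cluster-9033.19348, had 228, 255 and 264 CPM in the cadmium libraries, against 164, 219 and 167 CPM in the control libraries, and did not pass (adjusted p = 0.0842), though it did without control replicate 2 (adjusted p = 0.0391). Cluster-9033.19344 was at 0 in all 3 cadmium libraries, against 16.6, 16.5 and 31.4 CPM in the control libraries, at least 24.7-fold lower with the same floor (adjusted p = 0.00949). In both AHK1 and AHK5 a cluster of 1449 or 1765 bases had reads in every control library and in no cadmium library. A longer cluster of the same name had reads in both groups. Length did not separate the 2 kinds: AHK1 Cluster-9033.19343, of 971 bases, had reads in every library. AHK3 Cluster-9033.104571, also at 0 in cadmium, is 3647 bases long.

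CKI1, a kinase that acts without binding cytokinin and is known from the female gametophyte and from vascular tissue, was low in both groups. Its sum was 180.3, 201 and 151 CPM in the cadmium libraries, against 115, 118 and 81.3 CPM in the control libraries (log2 fold change 0.76 ± 0.182, edgeR, adjusted p = 0.00713), and whole-library totals gave 0.40 and no call (adjusted p = 0.0743). Cluster-9033.138022 had 129, 132 and 62.3 CPM in the cadmium libraries, against 38.6, 45.8 and 45.8 CPM in the control libraries (log2 fold change 1.32 ± 0.344, adjusted p = 0.0314). That call stood without cadmium replicate 3 and ended when any other single library was left out (adjusted p 0.0784 to 0.0976). Cluster-9033.138023 had 29.4, 0 and 33.7 CPM in the cadmium libraries, against 70.6, 64.0 and 37.2 CPM in the control libraries, and did not pass (log2 fold change −1.45 ± 1.18).

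**Figure D4:**
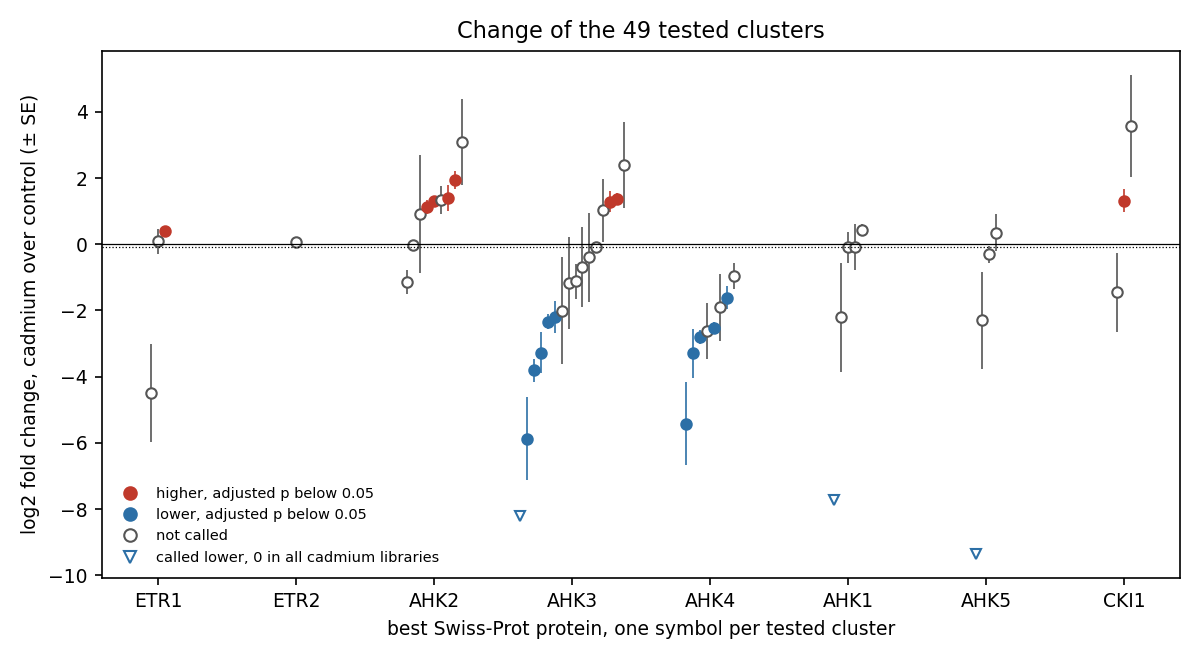
Log2 fold change, cadmium over control, with SE for the 49 tested clusters by protein name; filled circles passed an adjusted p of 0.05, and triangles mark clusters that passed and were at 0 in all cadmium libraries, whose fitted value is no bound. The dotted line is the median of all regulators tested, −0.08. All 8 AHK4 clusters lie below it, and AHK2 and AHK3 clusters lie on both sides.

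Further along the cytokinin relay, the lists were read from the same fit. Of 21 tested clusters of type A response regulators, 1 rose and 11 fell, or 1 and 13 with whole-library totals, with a median log2 fold change of −1.33, or −1.68 on that scale; 57.1% were called, against 30.5% of all regulators. ARR5, a type A regulator that cytokinin induces in Arabidopsis, had 61.8, 48.0 and 40.0 CPM in the cadmium libraries, against 883, 665 and 833 CPM in the control libraries (Cluster-9033.85724, log2 fold change −3.98 ± 0.211, adjusted p = 0.000117). ARR4 had 62.0, 53.0 and 68.2 CPM in the cadmium libraries, against 247, 257 and 303 CPM in the control libraries (Cluster-9033.52450, log2 fold change −2.14 ± 0.166, adjusted p = 0.000402). Both groups of libraries lie far apart in these clusters. The cluster that rose, Cluster-9033.148551, carries the name ARR9 and had 28.7, 29.9 and 42.7 CPM in the cadmium libraries, against 0, 1.99 and 0 CPM in the control libraries (adjusted p = 0.0122). Type B response regulators counted 11 higher and 4 lower of 49, or 10 and 8 with whole-library totals; 30.6% were called, against 30.5% of all regulators. Their median log2 fold change was 0.40, or 0.04 with whole-library totals. Among them ARR1 had 2121, 2118 and 1991 CPM in the cadmium libraries, against 686, 707 and 721 CPM in the control libraries (Cluster-9033.72361, adjusted p = 5.12e-05), and ARR2 had 1598, 1464 and 1567 CPM in the cadmium libraries, against 295, 308 and 237 CPM in the control libraries (Cluster-9033.50181, adjusted p = 8.6e-05). ARR18 fell by 1.49 on the log2 scale (Cluster-9033.139787, adjusted p = 0.00701), and an ARR10 cluster was at 0 in cadmium and at 9.89, 9.72 and 34.0 CPM in control libraries (Cluster-9033.105413, adjusted p = 0.0215). Names of phosphotransfer proteins and phytochromes matched no cluster.

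The predicted protein domains, which the name rule does not use, were shared in part. All 76 clusters had a response regulator receiver domain in the deposited annotation, and 60 also had the phospho-acceptor domain of histidine kinases. The 16 with a receiver domain alone were all 6 AHK1 clusters, 4 of AHK2, 4 of AHK3 and 2 of AHK5. GAF domains, known from ethylene receptors and phytochromes, were annotated in all 4 ethylene receptor clusters and in no other member. All 8 clusters that rose had both domains, as did 21 of the 28 tested clusters that were not called. Of the 13 that fell 8 had both and 5 had the receiver domain alone: 3 AHK3 clusters, the AHK5 cluster and the AHK1 cluster. All 14 AHK4 clusters had both, at lengths of 1763 to 4632 bases.

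The authors' deposited table called 8 member clusters higher and 14 lower at a q-value below 0.05. Its background was 19.1% of the 7697 regulators it gives a q-value for. The present fit shared 6 of its 8 higher and 13 of its 14 lower calls, and no member was called in opposite directions.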

How the data were processed

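RNA was sequenced from 3 cadmium and 3 control root libraries (TruSeq kit, per the labels' protocols). Bowtie2 2.0.6 and TopHat2 2.0.12 are listed in the submitters' processing notes, with no role stated; assembler, counter and strand setting were not found in the labels or headers. The deposited table gives expected counts per cluster (with decimals) and FPKM, both from the authors. It also gives the authors' deposited log2 ratio and q-value, from a test that is not named. Its 8544 lines hold 8147 clusters, and no member has a genome position or sequence here.

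Expected counts were rounded and all clusters were tested together: edgeR 4.0.16 (R 4.3.3), low counts removed with filterByExpr on group (minimum 10, total 15), TMM, a quasi-likelihood fit with group as its only term, and Benjamini-Hochberg adjustment. SE is the log2 fold change over the square root of F. Counts summed over the best Swiss-Prot protein went through the same test. Whole-library totals were worked out from the relation of count, FPKM and length (clusters over 300 counts and 10 FPKM). A floor is 3 counts over a group and covers counting error only. Alternatives were RLE factors, whole-library totals, no filter, 5 CPM in 3 libraries, DESeq2 1.42.0, limma 3.58.1 on log2(FPKM + 1) and log2(FPKM + 0.1), a replicate block, each library left out, a 2-fold minimum, and sums over best Swiss-Prot or NR hits. Named are all called members, the uncalled member with the highest mean CPM in each role, and up to 2 called clusters each way per pathway list; any other cluster named was chosen after its values were seen. The members, lists and tests were chosen with earlier results of these data known. In data simulated with the same dispersion for every cluster (coefficient of variation 0.573), edgeR recovered 0 of 45 changes of 2-fold, 15 of 53 of 4-fold and 35 of 58 of 8-fold. Of its 52 calls there, 2 were false. Real clusters differ in spread, and ETR1 Cluster-9033.84021 was called at a log2 fold change of 0.39. The simulated shares are therefore not the power of the present fit. A cluster that did not pass is still not shown to be unchanged. Preparation and figures used Python 3.11.15, pandas 2.3.3, numpy 2.4.6 and matplotlib 3.10.9.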

Additional observations from a re-analysis of the deposited data

How the results depend on the processing

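The sums of AHK4 and AHK5 (lower) and AHK2 (higher) kept their direction and call with RLE factors, whole-library totals, no filter, the 5 CPM filter, DESeq2, both limma fits, the replicate block and each library left out. Each of these AHK5 sums includes Cluster-9033.27395, the only AHK5 cluster called by itself in the main fit. The 2-fold minimum was applied to single clusters only, and the AHK2 sum (0.91) and the AHK5 sum (−0.76) lie under it. Summed over NR hits, the 3 AHK2 isoforms stood at 1.14, 1.13 and 0.28. The member counts, 8 higher and 13 lower, became 4 higher with whole-library totals and 5 higher with limma on FPKM at either pseudocount. Sums count proteins rather than clusters: over the Swiss-Prot hit 4 of 8 were higher and 2 lower. Over the NR hit 3 were lower, while the 3 AHK2 isoforms, AHK3 isoform X1, CKI1, ETR1 and the hit shared by ETR2 and EIN4 were higher. DESeq2 called 12 members higher, 17 lower and 2094 regulators in all. Leaving out single libraries gave 5 to 8 members higher, 8 to 13 lower and 1136 to 1210 regulators called in all, where the main fit called 1476. Log2 fold changes were then 0.19 to 0.30 for the AHK3 sum and −0.054 to 0.18 for the ETR2 sum.

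With whole-library totals the sums had log2 fold changes of −0.23 for AHK1, −0.10 for AHK3, 0.40 for CKI1, 0.031 for ETR1 and −0.29 for ETR2. With limma on log2(FPKM + 1) these were −0.27, −0.66, 0.26, 0.038 and −0.23 in that order, and on log2(FPKM + 0.1) −0.29, −0.67, 0.37, 0.038 and −0.27. ETR1 Cluster-9033.84024, near 0, turned to −0.26 with whole-library totals, −0.22 and −0.33 with limma, and ranged from −0.24 to 0.38 with single libraries left out. ETR2 Cluster-9033.17819 turned to −0.29 with whole-library totals, −0.23 and −0.27 with limma, and ranged from −0.033 to 0.17 with single libraries left out. Summed over its NR hit with the EIN4 clusters it stood at 1.03 (adjusted p = 2.39e-06). Summed with the other clusters of their Swiss-Prot name, clusters that were lower alone stood at 0.13 for AHK1 Cluster-9033.19344, 0.26 for AHK3 and 0.76 for CKI1 Cluster-9033.138023. Over the NR hit the AHK1 cluster stood at 0.14, the CKI1 cluster at 0.75 and the AHK3 clusters of isoform X1 at 0.62, while those of isoform X2, with Cluster-9033.104577, Cluster-9033.104578 and Cluster-9033.100089, stood at −0.54 (adjusted p = 0.0003). That follows from the construction of the sums.

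Replicate numbers are shared by the groups, but the deviations of same-numbered libraries correlated at 0.0047, 0.029 and −0.0038, so the numbers are not taken to pair them. With the replicate block 4 members were called higher, 6 lower and 886 regulators in all, and ETR1 Cluster-9033.84024 stood at −0.0019.

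With 3 libraries a group, expected counts that can be divided among similar clusters, and no genome, single-cluster calls near the threshold are the least firm. The table used holds regulators alone, and the regulator scale and the whole-library scale differ by the shift given above.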
